A study of Rattus norvegicus with 8 samples.

Results

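Macrophages present antigen to T cells together with surface ligands that raise or restrain the T-cell response, and they carry receptors that restrain the macrophage itself. A set of 10 such genes was examined in sorted peritoneal macrophages: Cd80, Cd86, Cd40, Cd274, Pdcd1lg2, Icosl, Havcr2, Vsig4, Vsir and Cd200r1. The set was defined by gene symbol, and it was chosen with earlier results of these data known. In the table of 23487 genes, 9 of the 10 were listed under these symbols, and Icosl was listed as Icoslg, which RefSeq gives as its current symbol. The cells came from female Wistar rats, 8 weeks old, injected intraperitoneally with 2 mg of multi-walled carbon nanotubes. The tubes were the needle-like, mesotheliomagenic MWCNT-XNRI-7 (CNT-7) in 4 rats and the tangled, non-mesotheliomagenic MWCNT-CNT-T (CNT-T) in 4 rats. Macrophages were collected 15 days later and sorted on CD11b/c and His48 staining, and their mRNA was sequenced. Untreated rats were not analysed here, so that each value compares both particles with each other.

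CD80 and CD86 bind CD28, which stimulates T cells, and CTLA-4, which restrains them. ICOSL binds ICOS, and CD40 receives the CD40 ligand of T cells and licenses the presenting cell. PD-L1 (Cd274) and PD-L2 (Pdcd1lg2) engage the inhibitory receptor PD-1, VISTA (Vsir) acts as an inhibitory ligand and receptor, VSIG4 is a complement receptor of resident macrophages that also restrains T cells, and TIM-3 (Havcr2) and the CD200 receptor (Cd200r1) are inhibitory receptors of myeloid cells. In peritoneal macrophages of the mouse, VSIG4 is known as a marker of resident cells, whereas high MHC class II is a feature of cells recruited from monocytes.

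The totals were between 27195157 and 33732981 counts per rat, and 3 counts, taken as the smallest level that could be shown, corresponded to between 0.0887 and 0.109 CPM (counts scaled to the normalized total of the library). Of 12124 genes with enough counts to be tested, 3383 had an adjusted p-value under 0.10 in edgeR's quasi-likelihood test, which is a background of 27.9% (13.9% higher and 14.0% lower in CNT-7). The macrophage markers Csf1r, Cd68, Adgre1, Mertk, Fcgr1a, Lyz2, C1qa, C1qb and Gata6 were present in every rat, with sums of 17609 to 24114 CPM in the CNT-7 rats and 25945 to 37498 CPM in the CNT-T rats. Most of each sum was Lyz2, and of the 9 markers 5 were lower (Adgre1 by a log2 fold change of -1.13, C1qb by -0.86, Fcgr1a by -0.54, Cd68 by -0.34 and Csf1r by -0.33) and Gata6 was higher (0.30, adjusted p = 0.042 in edgeR). The part of these shifts in the results given here was not tested. In bulk samples, fewer cells that express a gene and less RNA per cell cannot be told apart. The rats are separate animals, but the labels do not say whether they were sorted or sequenced together.

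Macrophages collected after CNT-7 carried more Vsir, Cd274 and Havcr2 mRNA and less Cd86 mRNA than those collected after CNT-T. Of the 10 genes, 9 had enough counts to be tested, and these 4 passed the threshold (3 higher, 1 lower), a share of 44.4% beside the background of 27.9%. With 9 genes this share rests on few genes and was not tested as a set. Cd80, Icosl, Cd40, Vsig4 and Cd200r1 did not pass, and Pdcd1lg2 was too low to be tested. The groups did not overlap in 3 of the 9 genes (Vsir, Havcr2 and Cd86), beside 24.9% of all genes tested. The median log2 fold change (CNT-7 relative to CNT-T) was 0.20 over the 9 genes and 0.0083 over all genes tested. Of the 4 genes, Havcr2 alone changed by more than 2-fold.

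**Figure D1:**
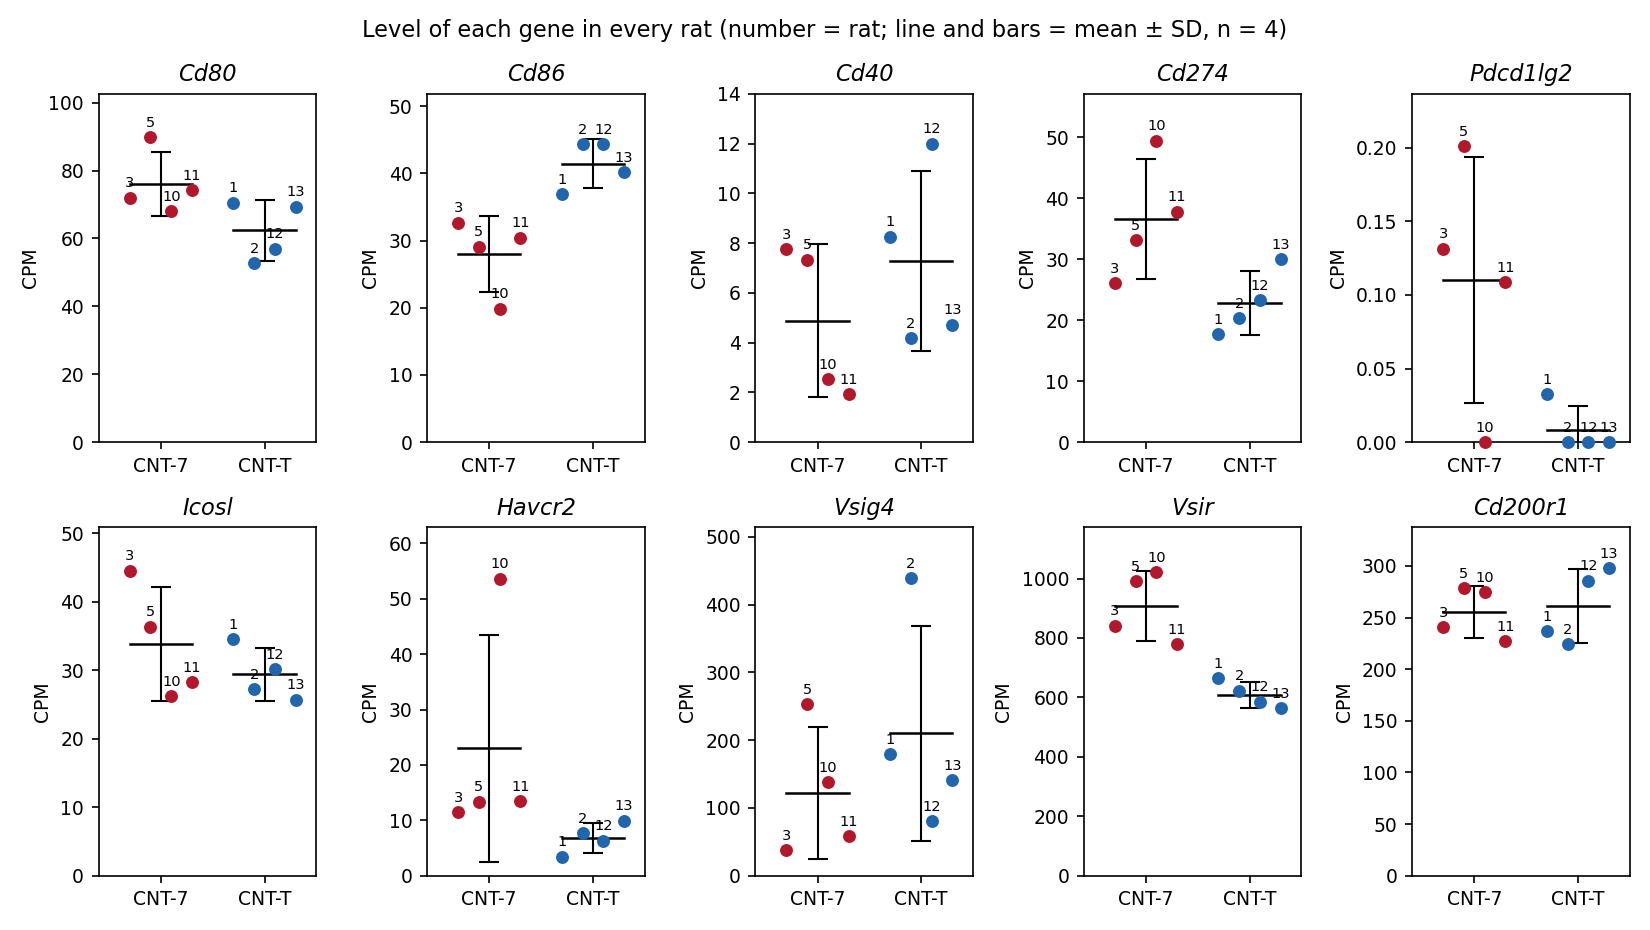
Level of each of the 10 genes in CPM (vertical axes, from 0) in every rat, by particle. Points are single rats with their rat number, and lines with bars are the mean ± SD of 4 rats. Vsir and Havcr2 lie higher and Cd86 lower in all CNT-7 rats than in any CNT-T rat, and Havcr2 of CNT-7 rat 10 (53.7 CPM) stands far above the other rats.

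Among the ligands of CD28 and CTLA-4, Cd86 and Cd80 did not move in parallel. Cd86 (ENSRNOG00000038835) had 32.7, 29.1, 19.9 and 30.4 CPM in CNT-7 rats 3, 5, 10 and 11, and 36.9, 44.4, 44.4 and 40.2 CPM in CNT-T rats 1, 2, 12 and 13. All CNT-7 rats were thus below all CNT-T rats, CNT-7 rat 10 being the lowest. The mean was 28.0 ± 5.63 CPM in the CNT-7 rats against 41.5 ± 3.62 CPM in the CNT-T rats (SD, n = 4 each), 1.48-fold lower with CNT-7 (log2 fold change -0.57, SE 0.14, adjusted p = 0.021 in edgeR). Over the 8 fits that each left out 1 rat, the log2 fold change of Cd86 ran from -0.65 to -0.43 and its adjusted p-value in edgeR from 0.012 to 0.060.

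Cd80 (ENSRNOG00000001527) had 72.0, 89.8, 68.1 and 74.3 CPM in the CNT-7 rats and 70.5, 52.7, 57.0 and 69.3 CPM in the CNT-T rats, in the same order of rats. The groups overlapped, with CNT-7 rat 10 below CNT-T rats 1 and 13. The difference, 76.0 ± 9.54 against 62.4 ± 8.88 CPM (SD, n = 4), did not pass the threshold (log2 fold change 0.29, 95% interval 0.019 to 0.55, adjusted p = 0.13 in edgeR). Without CNT-T rat 1 it passed (log2 fold change 0.35, adjusted p = 0.090 in edgeR).

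Because both ligands share their receptors, their ratio was formed within each rat, where neither library size nor gene length affects the comparison of the groups. The ratio of Cd86 to Cd80 CPM was 0.453, 0.324, 0.292 and 0.409 in CNT-7 rats 3, 5, 10 and 11, and 0.524, 0.842, 0.779 and 0.580 in CNT-T rats 1, 2, 12 and 13. Every CNT-7 rat was below every CNT-T rat, and CNT-T rat 1 was closest to the CNT-7 rats. The log2 ratio averaged -1.46 ± 0.29 in the CNT-7 rats and -0.58 ± 0.33 in the CNT-T rats (SD, n = 4 each), and differed by -0.87 (exact permutation test over 70 divisions, two-sided, p = 0.0286, the smallest that 4 rats against 4 allow). Adjusted over the 2 ratios examined, the exact p-value was 0.057. Without CNT-7 rat 5 the difference was -0.82 and the adjusted exact p-value rose to 0.114.

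**Figure D2:**
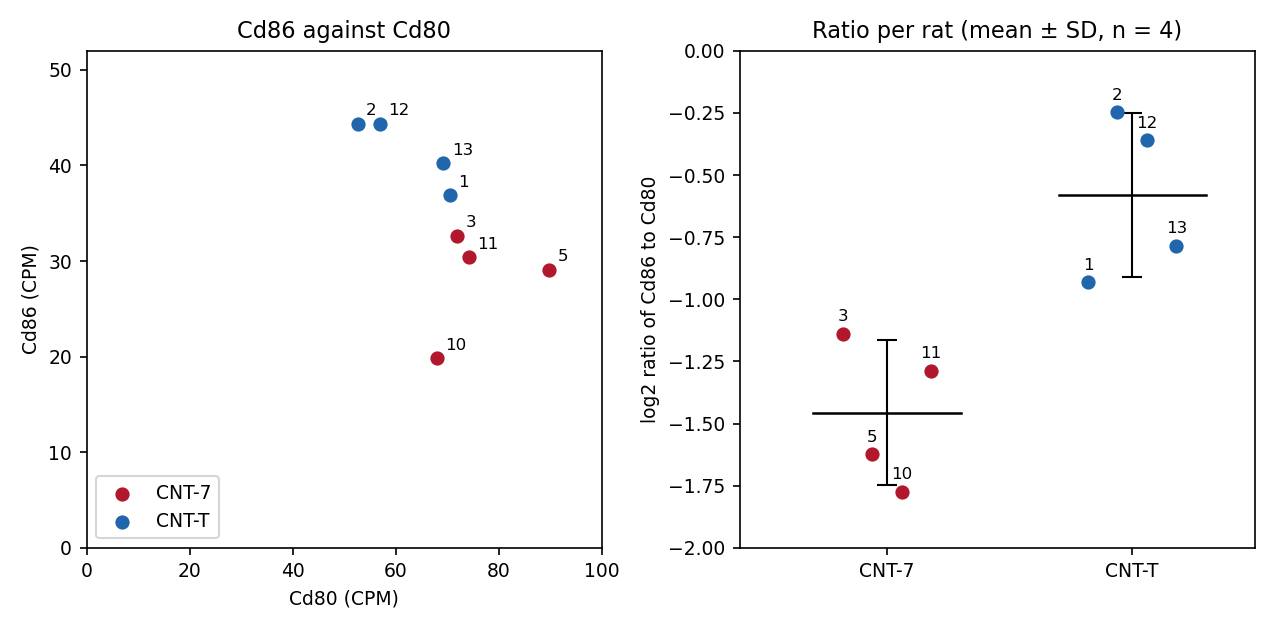
Cd86 against Cd80 in CPM (left) and the log2 ratio of Cd86 to Cd80 (right) for each rat, numbered by rat; lines with bars are the mean ± SD of 4 rats. The CNT-7 rats lie below the CNT-T rats on the Cd86 axis, and their ratios (mean -1.46) are all below those of the CNT-T rats (mean -0.58).

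The PD-1 ligand Cd274 was higher after CNT-7, whereas its neighbour Pdcd1lg2 was at the limit of detection. Cd274 (ENSRNOG00000016112) had 26.0, 33.2, 49.5 and 37.8 CPM in CNT-7 rats 3, 5, 10 and 11, and 17.7, 20.4, 23.3 and 30.0 CPM in CNT-T rats 1, 2, 12 and 13. The groups overlapped, since CNT-T rat 13 was above CNT-7 rat 3. Cd274 averaged 36.6 ± 9.83 CPM in the CNT-7 rats against 22.8 ± 5.29 CPM in the CNT-T rats (SD, n = 4 each), 1.60-fold higher (log2 fold change 0.68, SE 0.21, adjusted p = 0.046 in edgeR). This call was lost without CNT-T rat 1 (log2 fold change 0.58, adjusted p = 0.101 in edgeR) and without CNT-T rat 2 (0.63, adjusted p = 0.118). In both groups the rats numbered 10 to 13 had more Cd274 than the rats numbered 1 to 5, and within each range of numbers both CNT-7 rats exceeded both CNT-T rats. With a block for these number ranges, which the labels do not call a batch, the log2 fold change was 0.67 and the adjusted p-value in edgeR was 0.0084.

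Pdcd1lg2 (ENSRNOG00000016136) had 4, 6, 0 and 3 counts in CNT-7 rats 3, 5, 10 and 11. It had 1 count in CNT-T rat 1 and 0 counts in CNT-T rats 2, 12 and 13, which allows up to 3 counts, or between 0.0887 and 0.107 CPM, in those rats. No fold change is given at this depth. The log2 ratio of Pdcd1lg2 to Cd274 is set largely by the prior count of 2 and was 0.43 higher with CNT-7 (two-sided exact permutation test, p = 0.57). In the RefSeq gene order Pdcd1lg2 is the next protein-coding gene after Cd274, so that the PD-1 ligands lie side by side in the genome and only Cd274 was detected above this limit in every rat.

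The inhibitory molecule Vsir gave the smallest adjusted p-value of the set. Vsir (ENSRNOG00000000569) had 841, 992, 1020.4 and 778 CPM in CNT-7 rats 3, 5, 10 and 11, and 664, 623, 586 and 564 CPM in CNT-T rats 1, 2, 12 and 13. The lowest CNT-7 rat, rat 11, was above the highest CNT-T rat, rat 1. Vsir averaged 908 ± 117 CPM in the CNT-7 rats against 609 ± 44.0 CPM in the CNT-T rats (SD, n = 4 each), 1.49-fold higher (log2 fold change 0.58, SE 0.10, adjusted p = 0.0047 in edgeR). Its log2 fold change stayed between 0.52 and 0.64 and its adjusted p-value in edgeR between 0.0022 and 0.020 when each rat was left out.

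Havcr2, which encodes the inhibitory receptor TIM-3, showed the largest fold change of the set, and its size depended on a single rat. Havcr2 (ENSRNOG00000031443) had 11.5, 13.3, 53.7 and 13.4 CPM in CNT-7 rats 3, 5, 10 and 11, and 3.42, 7.63, 6.30 and 9.92 CPM in CNT-T rats 1, 2, 12 and 13. Every CNT-7 rat was above every CNT-T rat, but CNT-7 rat 10 was far from the other 3. The rise was 3.37-fold, with a log2 fold change of 1.75 and a wide 95% interval of 0.56 to 2.95 (adjusted p = 0.044 in edgeR). Without CNT-7 rat 10 the CNT-7 mean was 12.8 ± 1.09 CPM (SD, n = 3) against 6.82 ± 2.71 CPM (SD, n = 4) with CNT-T, and the log2 fold change was 0.91 (adjusted p = 0.062 in edgeR). Without CNT-T rat 12 the adjusted p-value was 0.109 in edgeR, at a log2 fold change of 1.72.

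**Figure D3:**
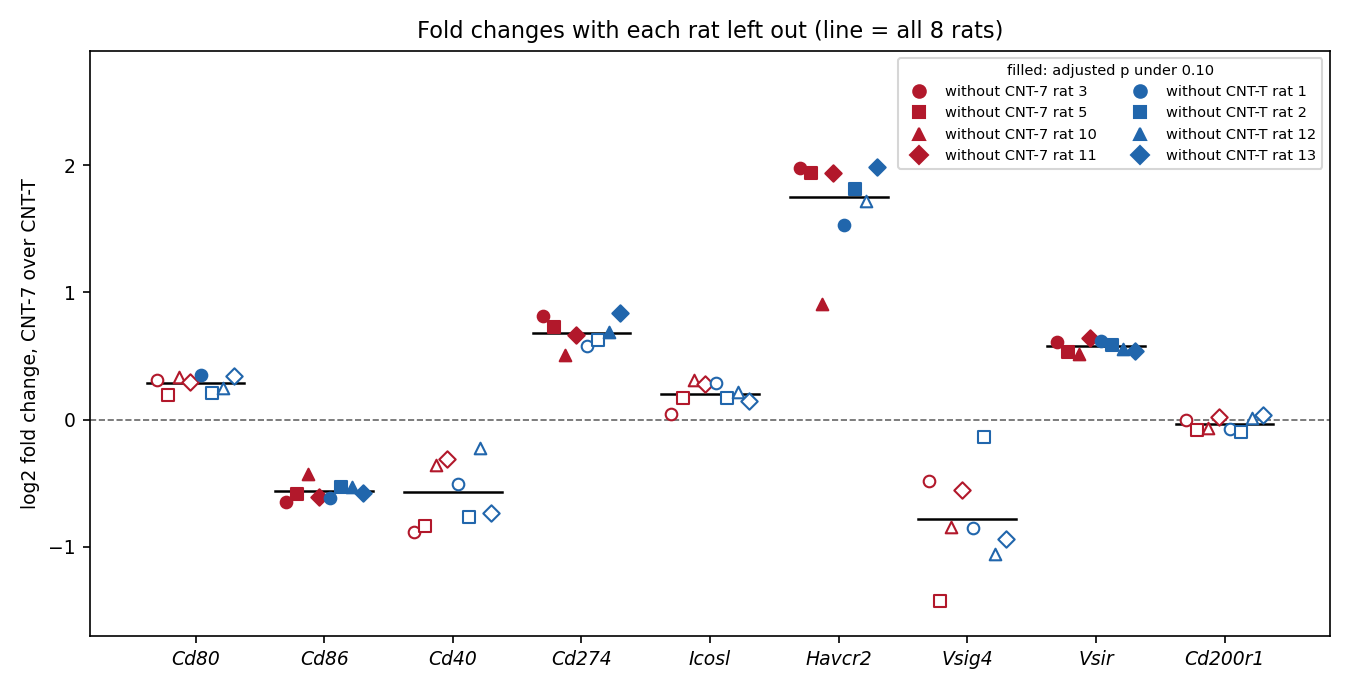
Log2 fold change (CNT-7 relative to CNT-T) (vertical axis) for the 9 tested genes with all 8 rats (line) and with each rat left out in turn (symbols, filled where the adjusted p-value in edgeR is under 0.10). Vsir and Cd86 stay filled throughout, Cd274 loses the call without CNT-T rat 1 or 2 and Havcr2 without CNT-T rat 12, and Havcr2 falls to 0.91 without CNT-7 rat 10.

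The proximal upstream sequences of the 4 genes that passed the threshold are shown because these genes differed between the particles, although no measurement of promoter activity was available. RefSeq windows (assembly GRCr8, not the assembly of the counts) were used here for 8 of the 10 genes. The 250 bases before each annotated start are printed 5′ to 3′. Capitals mark matches, on either strand, to 4 motifs: the core of the interferon-stimulated response element (GAAA, any 2 bases, GAAA), the interferon-gamma-activated GAS element (TTCNNNGAA), the PU.1 motif GAGGAAGT and the NF-kappaB site.
Cd86 (GRCr8, chr11:77669031-77669280, plus strand): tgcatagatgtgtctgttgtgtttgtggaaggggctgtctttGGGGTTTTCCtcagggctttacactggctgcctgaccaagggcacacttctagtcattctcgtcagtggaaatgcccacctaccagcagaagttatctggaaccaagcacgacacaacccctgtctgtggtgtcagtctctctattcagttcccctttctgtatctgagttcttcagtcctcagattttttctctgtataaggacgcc
Cd274 (GRCr8, chr1:236529982-236530231, plus strand): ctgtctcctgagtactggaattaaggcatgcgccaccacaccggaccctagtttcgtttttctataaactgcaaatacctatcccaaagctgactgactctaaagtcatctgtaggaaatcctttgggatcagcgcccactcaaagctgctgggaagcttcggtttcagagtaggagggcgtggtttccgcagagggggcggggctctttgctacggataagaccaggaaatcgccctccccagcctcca
Vsir (GRCr8, chr20:28824265-28824514, plus strand): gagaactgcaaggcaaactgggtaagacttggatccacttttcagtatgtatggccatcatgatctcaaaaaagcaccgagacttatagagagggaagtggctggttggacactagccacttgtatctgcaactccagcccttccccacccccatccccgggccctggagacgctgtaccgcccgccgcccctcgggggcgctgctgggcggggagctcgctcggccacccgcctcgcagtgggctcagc
Havcr2 (GRCr8, chr10:31383675-31383924, plus strand): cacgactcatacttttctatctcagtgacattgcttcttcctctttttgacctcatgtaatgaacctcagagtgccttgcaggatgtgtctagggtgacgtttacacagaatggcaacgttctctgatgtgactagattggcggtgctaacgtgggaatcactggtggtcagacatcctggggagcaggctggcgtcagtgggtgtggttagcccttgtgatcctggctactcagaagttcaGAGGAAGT

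In these windows Cd86 held an NF-kappaB match, at 208 to 199 bases before the start, and Havcr2 held a PU.1 match in the last 8 bases before the start. Cd274 and Vsir held none of the 4 letter patterns in these windows. Among all 33469 windows of this length, 6.33% held the NF-kappaB motif, 2.04% the PU.1 motif, 7.67% the GAS motif and 3.41% the interferon-stimulated core. The 3 genes that were higher after CNT-7 shared no motif of the 4, and the matches are a description of the letters alone.

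Of the remaining ligands and receptors on the stimulatory side, neither Icosl nor Cd40 differed beyond the spread between rats. Icosl (ENSRNOG00000023109), the ligand of ICOS, had 44.5, 36.4, 26.2 and 28.3 CPM in the CNT-7 rats and 34.5, 27.3, 30.1 and 25.7 CPM in the CNT-T rats, in the order of rats used above. The groups overlapped widely, although CNT-7 rats 3 and 5 were the highest of the 8 (log2 fold change 0.20, 95% interval -0.17 to 0.58, adjusted p = 0.45 in edgeR). Cd40 (ENSRNOG00000018488) had 7.75, 7.34, 2.53 and 1.92 CPM in the CNT-7 rats and 8.25, 4.17, 12 and 4.73 CPM in the CNT-T rats. CNT-7 rats 10 and 11 were the lowest of the 8 rats, while CNT-7 rats 3 and 5 lay between the lowest and the highest CNT-T rat. The mean levels were 4.88 ± 3.09 and 7.29 ± 3.63 CPM (SD, n = 4 each), and the interval of the log2 fold change, -1.67 to 0.53, covers both a fall of more than 2-fold and a rise (adjusted p = 0.47 in edgeR). For Cd40 the log2 ratio of the group means was 0.28 among the rats numbered 1 to 5 and -1.91 among those numbered 10 to 13, where the groups did not overlap.

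Vsig4, the complement receptor of resident macrophages, varied most of the tested genes between CNT-T rats. Vsig4 (ENSRNOG00000038132) had 37.5, 253, 138 and 58.6 CPM in the CNT-7 rats and 179, 439, 80.1 and 141 CPM in the CNT-T rats, a 6.74-fold range within CNT-7 and a 5.47-fold range within CNT-T. CNT-7 rat 5 was above 3 of the CNT-T rats, and CNT-T rat 2 was above all others. The 95% interval of its log2 fold change ran from -2.21 to 0.64 (estimate -0.79, adjusted p = 0.44 in edgeR), and without CNT-T rat 2 the estimate was -0.13, with a CNT-T mean of 134 ± 50.0 CPM (SD, n = 3).

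Cd200r1, the inhibitory receptor for CD200, was the least different gene of the set. Cd200r1 (ENSRNOG00000039048) had 241, 278, 274 and 227 CPM in the CNT-7 rats and 237, 224, 286 and 298 CPM in the CNT-T rats. Its means of 255 ± 25.1 and 261 ± 36.2 CPM (SD, n = 4 each) gave a log2 fold change of -0.033 with an interval of -0.28 to 0.22 (adjusted p = 0.87 in edgeR), so that a change of 2-fold lies outside the interval. Within the rats numbered 1 to 5 both CNT-7 rats were above both CNT-T rats, and within those numbered 10 to 13 both were below, with no test at 2 rats against 2. Its relative Cd200r1l, with 2.99 ± 1.37 CPM in the CNT-7 rats against 1.33 ± 0.41 CPM in the CNT-T rats (SD, n = 4 each, log2 fold change 1.16, adjusted p = 0.075 in edgeR), was named after its values were seen, and the quantification may divide reads between similar genes.

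The 10 genes also differed in how far rats of the same particle lay apart. The coefficient of variation within CNT-7 was lowest for Cd200r1 (9.85%), Cd80 (12.5%) and Vsir (12.9%) and highest, among the tested genes, for Havcr2 (89.1%), Vsig4 (80.1%) and Cd40 (63.2%). Within CNT-T it was lowest for Vsir (7.22%) and Cd86 (8.72%) and highest for Vsig4 (75.3%) and Cd40 (49.8%). CNT-7 rat 10 had the highest Vsir, Cd274 and Havcr2 and the lowest Cd86 of all 8 rats. It thus lay furthest in the direction of the group difference, which it helps to set, for all 4 genes that passed the threshold. This rat was not extreme in these genes alone. Of the macrophage markers, it also had the lowest Csf1r, Cd68, Adgre1, Mertk, Fcgr1a, C1qa and C1qb of all 8 rats, but not the lowest Lyz2 or Gata6. CNT-T rat 13 had the highest Cd274 and Havcr2 of its group but the lowest Vsir.

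**Figure D4:**
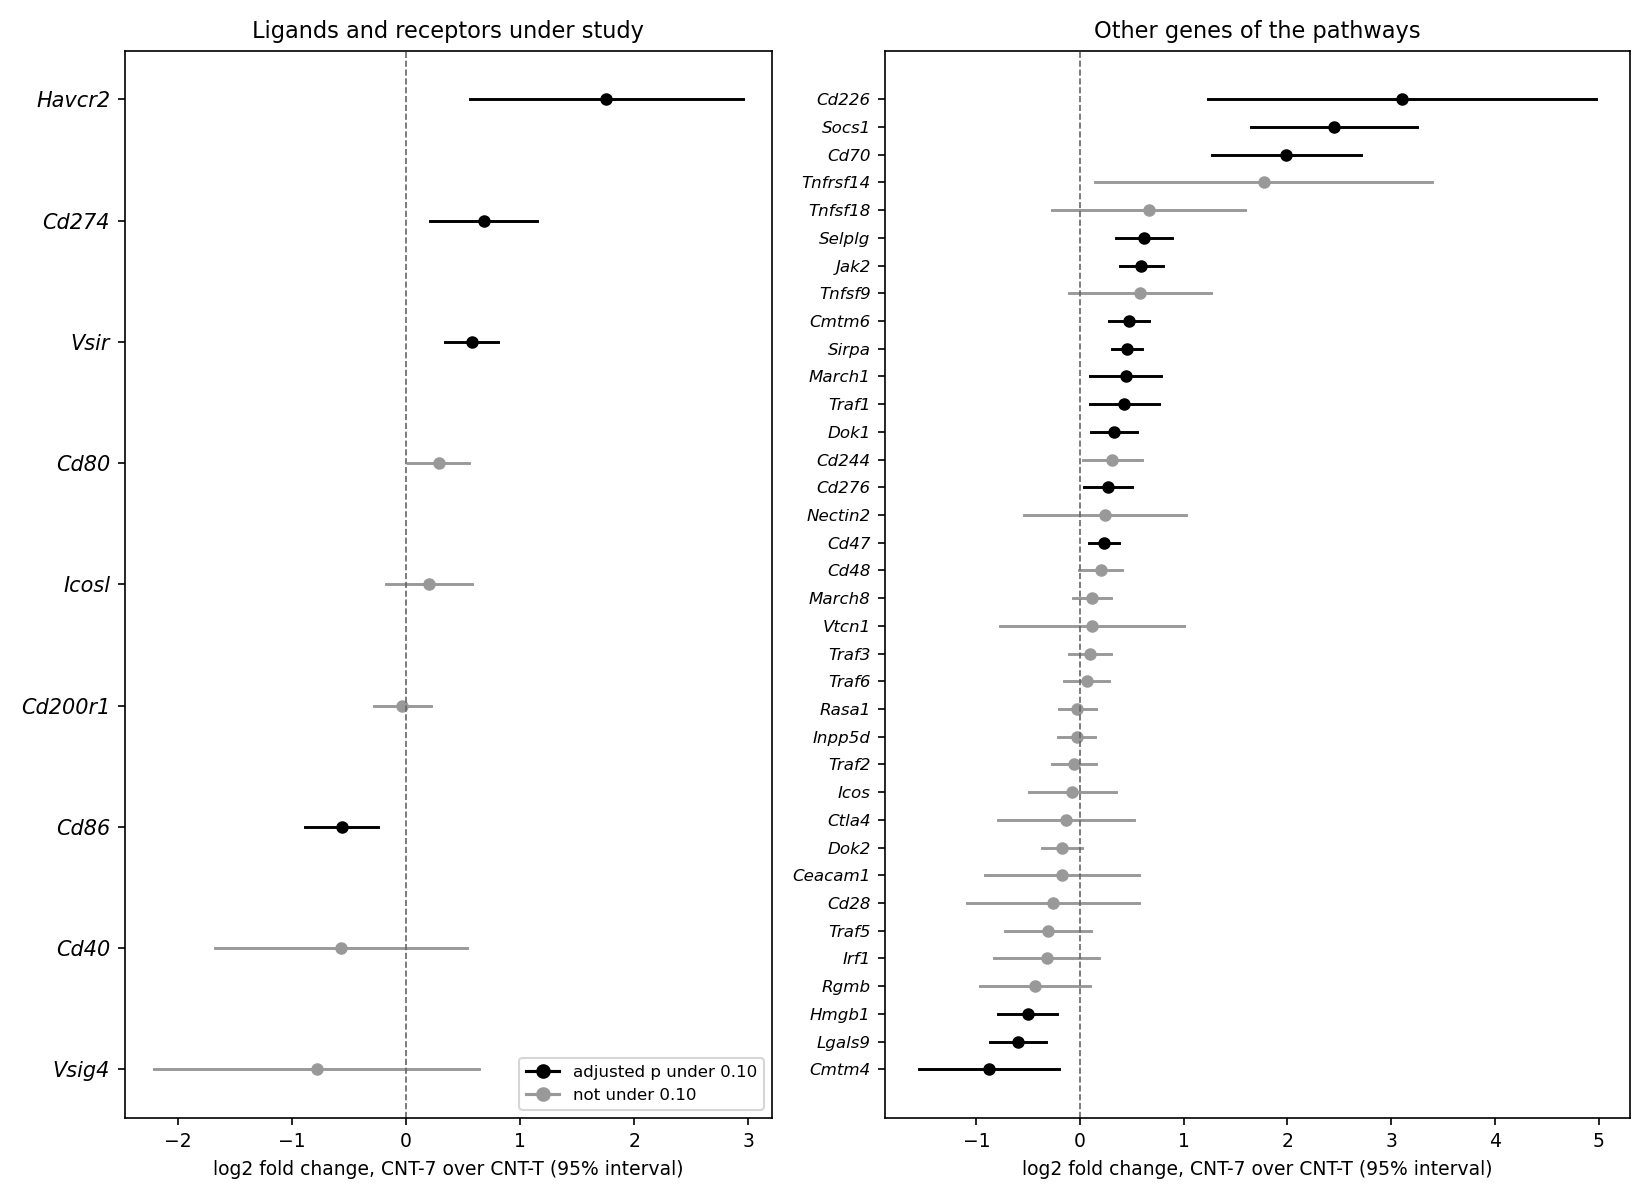
Log2 fold change (CNT-7 relative to CNT-T) with its 95% interval from edgeR for the 9 tested genes of the set (left) and for other tested genes of their pathways (right), black where the adjusted p-value is under 0.10. On the left Havcr2, Cd274 and Vsir lie above 0 and Cd86 below, with the widest intervals for Vsig4, Havcr2 and Cd40.

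Genes on the other side of these interactions, related ligands and receptors, and genes that carry or control their signals were examined in 5 lists. The lists held 49 symbols, of which 46 had a row of their own and 37 could be tested. Of these, 12 were higher and 3 lower after CNT-7, a share of 40.5% beside the background of 27.9%. Their median log2 fold change was 0.12.

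The list of ligands of the inhibitory receptors also held Sirpa, itself a receptor, and Cd47, its ligand, which are not partners of the 10 genes. In this list 3 of 7 tested genes were higher and 2 lower, a share of 71.4% beside the background of 27.9%. The median log2 fold change of the 7 genes was -0.17. The higher genes were Selplg, Sirpa and Cd47. Of the ligands without this pair, only Selplg was higher, and Lgals9 and Hmgb1 were lower. Selplg, which encodes PSGL-1, a ligand of VISTA, rose to 266 ± 26.9 CPM from 174 ± 26.4 CPM with CNT-T (SD, n = 4 each, log2 fold change 0.61, adjusted p = 0.0067 in edgeR), in the same direction as Vsir. The genes of the TIM-3 ligands galectin-9 and HMGB1 moved opposite to Havcr2. Lgals9 had 225 ± 26.1 against 341 ± 46.0 CPM (log2 fold change -0.60, adjusted p = 0.0074 in edgeR) and Hmgb1 68.7 ± 11.4 against 97.5 ± 11.7 CPM (-0.51, adjusted p = 0.021), whereas Ceacam1, a further TIM-3 ligand, had a log2 fold change of -0.17 (adjusted p = 0.76). Sirpa, the inhibitory receptor for CD47, was at 262 ± 3.68 against 192 ± 9.65 CPM (0.45, adjusted p = 0.0015), and the remaining called gene of this list was Cd47 itself (0.23, adjusted p = 0.030 in edgeR). Cd200, the ligand of the CD200 receptor, had too few counts to be tested.

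Among genes that control PD-L1 and CD86, 4 of 8 were higher and 1 lower, a share of 62.5% beside the background of 27.9%. Cmtm6, whose product stabilizes PD-L1 at the cell surface, was higher by 0.47 on the log2 scale (384 ± 34.1 against 277 ± 19.9 CPM, adjusted p = 0.0050 in edgeR). Jak2, a kinase of interferon-gamma and cytokine signalling, was higher by 0.59 (adjusted p = 0.0024), and Socs1, which is induced by and restrains such signalling, rose from 0.58 ± 0.26 to 3.20 ± 0.93 CPM (log2 fold change 2.45, adjusted p = 0.0018 in edgeR). In contrast Irf1, a transcription factor that carries interferon signals to Cd274, did not pass (-0.32, adjusted p = 0.36). Cmtm4, of the same gene family as Cmtm6, moved opposite to it at a low level. It had 0.59 ± 0.20 against 1.09 ± 0.24 CPM (SD, n = 4 each, log2 fold change -0.88, adjusted p = 0.069 in edgeR). March1, whose product removes CD86 and MHC class II from the surface, was higher (0.44, adjusted p = 0.069 in edgeR). The call of Cmtm4 was lost in 5 of the 8 fits that left out a rat.

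Among further B7 relatives and receptors of T cells, 2 of 6 were higher and none lower, a share of 33.3% beside the background of 27.9%. Cd226, the activating receptor that binds nectin-type ligands, had 7.26 ± 5.49 against 0.82 ± 1.09 CPM (log2 fold change 3.10, adjusted p = 0.027 in edgeR). The log2 fold change of Cd226 was 2.44 without CNT-7 rat 3 and 4.62 without CNT-T rat 2, and it passed in all 8 fits that left out a rat. Cd276, which encodes B7-H3, had 124 ± 14.2 against 103 ± 10.2 CPM (0.27, adjusted p = 0.094), and this call was lost in 7 of the 8 fits that left out a rat. The receptor genes Cd28 and Ctla4 had means between 1.60 and 1.94 CPM in both groups, whereas Icos had 28.2 ± 8.10 CPM with CNT-7 against 29.7 ± 3.04 CPM with CNT-T, without a call (log2 fold change -0.075, adjusted p = 0.82 in edgeR). Pdcd1, Cd40lg, Lag3, Tigit and Btla were too low to be tested.

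In the list of TNF-superfamily and nectin costimulation, 1 of 7 tested genes passed, a share of 14.3% beside the background of 27.9%. All 7 had a log2 fold change above 0 (median 0.58), beside 6201 of all 12124 genes tested, and the list was not tested as a set. The gene that passed was Cd70, the ligand of CD27, with 2.11 ± 0.71 CPM in the CNT-7 rats against 0.53 ± 0.14 CPM in the CNT-T rats (log2 fold change 1.99, adjusted p = 0.0028 in edgeR). Among 9 signal adaptors of CD40 and the CD200 receptor, 22.2% passed, beside the background of 27.9%. These were Traf1 (0.42, adjusted p = 0.074) and Dok1 (0.32, adjusted p = 0.046 in edgeR), both higher. Traf2, Traf3, Traf5, Traf6, Dok2, Rasa1 and Inpp5d had log2 fold changes between -0.31 and 0.095 without a call. The call of Traf1 was lost in 6 and that of Dok1 in 3 of the 8 fits that left out a rat.

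MHC class II genes, which present the antigen that costimulation accompanies, were higher after CNT-7 in 6 of 6 genes (Ciita, RT1-Da, RT1-Db1, Cd74, RT1-Bb and RT1-Ba). This is a share of 100% beside the background of 27.9%. Their median log2 fold change was 2.82, and their adjusted p-values in edgeR ran from 0.0029 (Cd74) to 0.0071 (Ciita). CNT-T rat 2 had the highest level of its group for all 6, and without it the log2 fold change of RT1-Bb was 3.70, that of RT1-Db1 3.60 and that of Ciita 3.76. The costimulatory ligand Cd86 thus fell in the same samples in which these genes rose. In CNT-7 rat 10, all 6 MHC class II genes were the lowest of the CNT-7 rats, as was Cd86, while Cd274, Vsir and Havcr2 were the highest.

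Several of the 10 genes are also expressed by other cells that a sort could retain. Markers of dendritic cells, which carry CD80, CD86, CD40 and PD-L2, reached a sum of 296 to 403 CPM in the CNT-7 rats and 473 to 744 CPM in the CNT-T rats, most of it Fscn1 (317 ± 59.5 against 579 ± 110 CPM). Of 8 tested dendritic cell markers 4 were higher (Ccr7, Ccl22, Clec9a and Batf3) and 2 lower (Fscn1 and Kmo), a share of 75% beside the background of 27.9%. The lineage-defining Flt3 and Xcr1 had means of at most 0.18 CPM, but other markers of the list were present. Zbtb46 had 2.89 to 7.92 CPM over the 8 rats, without a call (log2 fold change -0.218, adjusted p = 0.653 in edgeR). Ccl22 had 7.56 ± 4.96 against 0.139 ± 0.165 CPM (SD, n = 4 each, log2 fold change 5.67, adjusted p = 0.00335 in edgeR). Summed T-cell markers were at 4.78 to 15.1 CPM in the CNT-7 rats and 3.90 to 4.53 CPM in the CNT-T rats, which did not overlap. Of the 2 tested T-cell markers, only Cd2 was called, and it was higher (log2 fold change 3.48, adjusted p = 0.000703 in edgeR). Lck, most of each CNT-T sum, was not called and pointed the other way (-0.246, adjusted p = 0.555 in edgeR). Cd3e, at 0.81 ± 0.87 and 0.11 ± 0.086 CPM, was too low to be tested and was highest in CNT-7 rat 5 (2.11 CPM). In the same order of groups, the sums were 5.91 to 12.7 and 5.33 to 16.6 CPM for B cells, and 8.49 to 43.9 and 26.1 to 34.4 CPM for NK cells. For neutrophils they were 31.8 to 61.5 and 25.0 to 68.0 CPM, largely Csf3r. Sums for mast cells, eosinophils and mesothelial cells were at most 1.38, 9.33 and 0.37 CPM, the eosinophil value being that of CNT-7 rat 3 and mostly Ccr3. The part of such cells in the differences of Cd86, Cd274, Havcr2 and Vsir was not tested.

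The genes whose levels over the 8 rats were most like those of the 3 genes with the smallest adjusted p-values were sought among 10162 others with at least 1 CPM on average, as a description in which the difference between the groups takes part. For Vsir they were Acot7, Ids and Ip6k1, for Cd86 Cdk2, Gpr19 and Mvb12b, and for Havcr2 Tprkb, Prpf18 and Prelid2. Pearson's coefficients of log2 CPM were between 0.969 and 0.996, and a search over this many genes with 8 rats yields high values for any gene.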

How the data were processed

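The mRNA of macrophages sorted from the peritoneum of 8 rats, 4 per particle, was sequenced. The authors quantified reads with Salmon against Ensembl cDNA of Rnor_6.0, within the ARMOR workflow, and deposited estimated counts per gene as whole numbers, without normalization (versions not given in the sources used here). Conditions and rat numbers came from the sample labels. All 8 columns were used.

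Counts were filtered with filterByExpr (minimum count 10, minimum total 15), normalized by TMM and tested with edgeR 4.0.16 (quasi-likelihood test, R 4.3.3), with Benjamini-Hochberg adjustment over 12124 genes and a threshold of 0.10, as in the paper. Standard errors were taken from the log2 fold change and F (estimate over root F). CPM use TMM-scaled totals. Ratios were formed on log2 CPM (prior count 2), with exact permutation of the rats. Counting floors cover counting error alone. The members and lists were chosen with earlier results of these data known. Named genes were all members, the called genes of each pathway list up to the 4 with the smallest adjusted p-values, 6 MHC class II genes, and the 3 most similar genes of 3 members. Others are stated. Alternatives were DESeq2 1.42.0, upper-quartile normalization, other filters and thresholds, a block of rat-number ranges and each rat left out.

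Scripts were tested on simulated counts with 200 changed genes. For CNT-7 against CNT-T, edgeR recovered 74.5% of 98 genes changed 2-fold and 97% of 100 changed 4-fold, among 12036 genes, and 11.9% of its calls were false. These percentages belong to the simulated setting. In the data 3383 of 12124 genes were called, a much larger part, so they do not give the recovery or the false calls of the real comparison. Of the pathway lists, 3 symbols had no row that could be matched (Ncr3lg1, Pvr and Vsig3, the last another name of Igsf11) and were not analysed here. A further tested gene of the lists is counted in the totals but not reported here.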

Additional observations from a re-analysis of the deposited data

Results flagged for a closer look

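In 6 of 80 groups of 4 rats, an extreme rat was far from its neighbour (Dixon's ratio of that gap to the whole range). For independent, normally distributed values chance gives about 1 in 20, or 4 groups. The groups here share rats and genes and include low counts, so the 6 cannot be judged against the 4. For Havcr2 in the CNT-7 rats, rat 10 had 53.7 CPM and the remaining 3 had 11.5 to 13.4 CPM, which gives a ratio of 0.954. For Pdcd1lg2 in the CNT-T rats, rat 1 had 1 count and the other 3 had 0, at a level under the floor of 3 counts. Such counts always give a ratio of 1. Cd276 had its lowest CNT-T value in rat 1, with 87.5 CPM beside 107 to 109 CPM and a ratio of 0.891. Cmtm4 had its highest CNT-7 value in rat 3, with 0.89 CPM beside 0.47 to 0.54 CPM and a ratio of 0.84. The summed B-cell markers of CNT-7 rat 5 were 12.7 CPM beside 5.91 to 6.75 CPM (0.877), and the summed eosinophil markers of CNT-7 rat 3 were 9.33 CPM beside 0.18 to 0.67 CPM (0.947). Of this eosinophil sum 8.74 CPM was the chemokine receptor gene Ccr3, while Epx and Prg3 had 0 counts in every rat.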

How the results depend on the processing

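When a 2-fold change was also required, there remained 1006 genes in all, 1 of the 10 genes (Havcr2) and 3 genes of the pathway lists. With each rat left out, between 3 and 4 of the 10 genes and between 11 and 16 pathway genes passed. DESeq2, upper-quartile normalization, other filters and the block of rat-number ranges each left 4 of the 10 genes called, and none changed the call of a tested gene of the 10. With each rat left out, log2 fold changes ranged from 0.20 to 0.35 for Cd80, from 0.50 to 0.84 for Cd274, from 0.91 to 1.98 for Havcr2 and from -0.10 to 0.035 for Cd200r1, whose sign turned without CNT-7 rat 11 and without CNT-T rats 12 or 13. Vsir and Cd86, 2 of the 4 called genes of the set, passed in all 8 of these fits, as did 2216 of the 3383 genes called in all. The difference of the Cd86 to Cd80 log2 ratio ranged from -0.99 to -0.76, and that of Pdcd1lg2 to Cd274 from 0.14 to 1.004, the latter passing without CNT-7 rat 10 and turning to -0.058 with a prior count of 5, since it rests on at most 6 counts. No paired analysis was possible because no rat number occurs in both groups. Depth limits Pdcd1lg2 alone among the 10 genes.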
